A study of Rattus norvegicus with 9 samples.

Results

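The erythroid lineage comprises the bone marrow cells that become red blood cells, and 31 of its genes were followed in 9 rat tibias. They were looked up by gene symbol in the count tables, where all 31 were found among 22589 listed genes, and all 31 were also among the 14520 genes with enough counts to be tested. By role, 9 genes make heme or carry its precursors, 12 were grouped under the red cell membrane and 5 encode transcription factors or nuclear regulators. Another 2 encode receptors and 3 serve other erythroid functions.

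All 9 rats were female Sprague-Dawley rats, bought at 9 weeks of age and operated on after 1 week of feeding, and the left tibias were collected 24 weeks after the operation. The Sham group (rats 12, 7 and 8) was sham-operated, the NE/Ovx group (rats 6, 8 and 9) was ovariectomized and did not exercise, and the RE/Ovx group (rats 3, 5 and 8) was ovariectomized and climbed a ladder with a load on the tail for 12 weeks after 2 weeks of adaptive training, up to a load of 100% of body weight. Rat numbers name animals within a group and do not pair animals between groups. Skin, muscle, ligaments and tendons were removed from the bones before RNA extraction, and no step that removed the marrow is described. Total RNA depleted of ribosomal RNA was sequenced from each rat as its own library, with 12297992 to 15123988 gene counts in the Sham group, 13568808 to 16671533 in the NE/Ovx group and 12967456 to 14946389 in the RE/Ovx group.

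Heme is built from glycine and succinyl-CoA through a chain of enzymes that begins and ends in the mitochondrion, and Alas2 is the erythroid form of the first and rate-limiting enzyme. The red cell membrane rests on a spectrin skeleton that is tied by ankyrin and protein 4.2 to the anion exchanger band 3, and it carries blood group proteins such as those of the Rh, Kell and Gerbich systems. Gata1, Tal1 and Klf1 are transcription factors that switch on globin, heme and membrane genes as erythroblasts mature, while erythropoietin and transferrin reach the cell through the receptors encoded by Epor and Tfrc. In a bone that still holds marrow, these transcripts come mainly from the erythroblasts and young red cells of that marrow.

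To show where such factors have their known recognition motifs, the 250 bases upstream of each listed RefSeq transcription start were searched on both strands. The rat assembly GRCr8 was used, for which 26 of the 31 members had an entry. The letters GATAA, the core that GATA factors bind, were found in 13 of 26 members (50%) and in 24.7% of all 27457 symbols in the table. CCNCNCCC, a CACCC-type sequence bound by Klf1 and its relatives, was found in 16 members (61.5%) against 45.5% of all symbols. Both motifs were found in 7 members (26.9%) against 7.93% of all symbols. Matches were counted per symbol over all its listed starts, so both motifs need not share a window. In Hemgn, which has 2 listed starts, they lay in different windows. Add2, Epor, Fech, Hba2, Rhd and Sptb held both in the same window. CCACACCC, a stricter form contained in CCNCNCCC, was found in 2 members (7.69%) against 3.08%, TGANTCA, the core of the Nfe2 site, in 2 members (7.69%) against 6.99%, and CAGNTG, the E-box that Tal1 complexes bind, in 14 members (53.8%) against 45.1%. A match is a run of letters in the window and not evidence of binding. Entries for Cpox, Slc25a37, Slc4a1, Ank1 and Nfe2 were not analysed here. Upstream sequences are printed, 5′ to 3′ on the strand of the gene, for Alas2, the first enzyme of heme synthesis (chrX:22895200-22895449, plus strand), Rhag, a membrane protein of the Rh complex (chr9:27594391-27594640, minus strand), the regulators Klf1 (chr19:40158652-40158901, minus strand) and Tal1 (chr5:133824214-133824463, plus strand), and Hba2, an alpha-globin gene listed there as Hba-a2 (chr10:15829139-15829388, minus strand). Capitals mark GATAA or CCNCNCCC on either strand.
Alas2: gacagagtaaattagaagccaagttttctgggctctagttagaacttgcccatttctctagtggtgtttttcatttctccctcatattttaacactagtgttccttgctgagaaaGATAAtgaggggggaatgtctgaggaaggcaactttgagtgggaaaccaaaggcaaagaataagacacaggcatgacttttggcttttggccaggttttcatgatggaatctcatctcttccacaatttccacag
Rhag: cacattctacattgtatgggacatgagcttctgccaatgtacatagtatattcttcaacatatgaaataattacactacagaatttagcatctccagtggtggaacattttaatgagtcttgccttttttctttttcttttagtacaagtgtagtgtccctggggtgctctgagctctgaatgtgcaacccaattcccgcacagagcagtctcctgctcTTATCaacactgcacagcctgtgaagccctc
Klf1: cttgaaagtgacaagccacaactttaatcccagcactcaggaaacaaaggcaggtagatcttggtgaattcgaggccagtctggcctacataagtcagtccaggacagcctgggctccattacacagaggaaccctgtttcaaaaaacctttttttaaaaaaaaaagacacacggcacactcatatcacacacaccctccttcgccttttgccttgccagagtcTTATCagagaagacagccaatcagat
Tal1: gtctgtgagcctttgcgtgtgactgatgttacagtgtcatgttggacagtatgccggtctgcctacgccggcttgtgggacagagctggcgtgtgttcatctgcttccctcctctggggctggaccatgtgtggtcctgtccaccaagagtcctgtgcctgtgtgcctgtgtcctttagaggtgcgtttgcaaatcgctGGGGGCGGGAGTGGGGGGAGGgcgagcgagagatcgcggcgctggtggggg
Hba2: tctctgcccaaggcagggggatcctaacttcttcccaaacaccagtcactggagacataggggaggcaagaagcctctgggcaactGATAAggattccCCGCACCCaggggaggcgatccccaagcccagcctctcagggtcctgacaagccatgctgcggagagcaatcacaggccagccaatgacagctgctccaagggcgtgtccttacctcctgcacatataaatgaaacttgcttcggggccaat
The GATAA match began 135 bases before the start in Alas2, 31 in Rhag, 26 in Klf1 and 164 in Hba2, where a CCNCNCCC match followed at 152. Tal1 had no GATAA in this window and 3 overlapping CCNCNCCC matches on the opposite strand, at 51, 45 and 38 bases before the start.

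Levels of different genes were compared per transcript length, as deposited FPKM, in which fragments are scaled to transcript length and library size. In the Sham group, Hba2 stood highest among the members at 17780 ± 1716 FPKM (SD, n = 3), followed by the band 3 gene Slc4a1 at 876 ± 132 FPKM and Alas2 at 382 ± 40.3 FPKM. Among the heme genes the FPKM level then declined through the mitochondrial iron importer Slc25a37 (272 ± 65.5) and Cpox (202 ± 25.6) to the glycine carrier Slc25a38 (18.2 ± 3.36). Slc25a37 and Cpox, neighbours in this order, differed by less than the sum of their SDs. Among the regulators, Hemgn (201 ± 24.7 FPKM), Tal1 (129 ± 17.01) and Klf1 (103 ± 8.35) lay above Nfe2 (63.8 ± 4.36). Gata1 was almost absent, with 4 to 91 counts per library where the other members had at least 374.

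**Figure D1:**
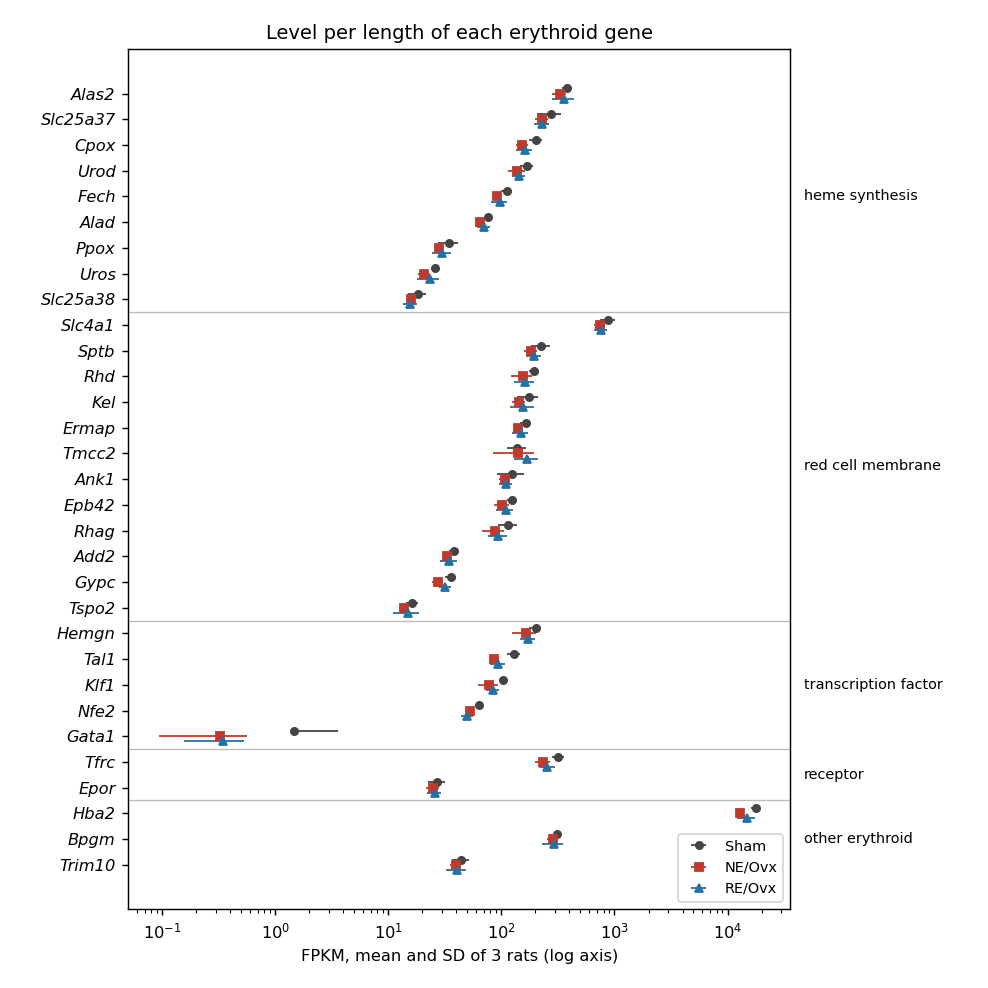
Level of each of the 31 erythroid genes in FPKM on a log axis, as the mean (symbol) and SD (bar) of 3 rats in each of the groups Sham, NE/Ovx and RE/Ovx, ordered within each role by the Sham mean. The lower SD bar of Gata1 in the Sham group, which would reach below 0, is left out. Hba2 lies above and Gata1 below all other members, and for most genes the groups lie close together on this scale.

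The first comparison, NE/Ovx against Sham, asked how these genes stood after ovariectomy without exercise. All 31 members had a negative log2 fold change, as did 49.6% of all tested genes. The median over the members was -0.32 on the log2 scale, against 0.0029 over all tested genes. No member passed the threshold of an adjusted p under 0.05 in edgeR's quasi-likelihood test, which 178 of 14520 genes (1.23%) passed. With an unadjusted p under 0.05, 9 members (29.0%) were lower, against 8.57% of all tested genes. For 11 members (35.5%), namely Alad, Uros, Cpox, Ppox, Gypc, Tspo2, Klf1, Tal1, Nfe2, Tfrc and Hba2, every NE/Ovx rat lay below every Sham rat, against 11.4% of all tested genes. The members share the same libraries and mostly ordered the rats alike, so their common sign is not 31 separate observations. In whole-bone RNA, fewer erythroid cells, less erythroid RNA per cell and a larger share of RNA from other cells cannot be told apart.

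**Figure D2:**
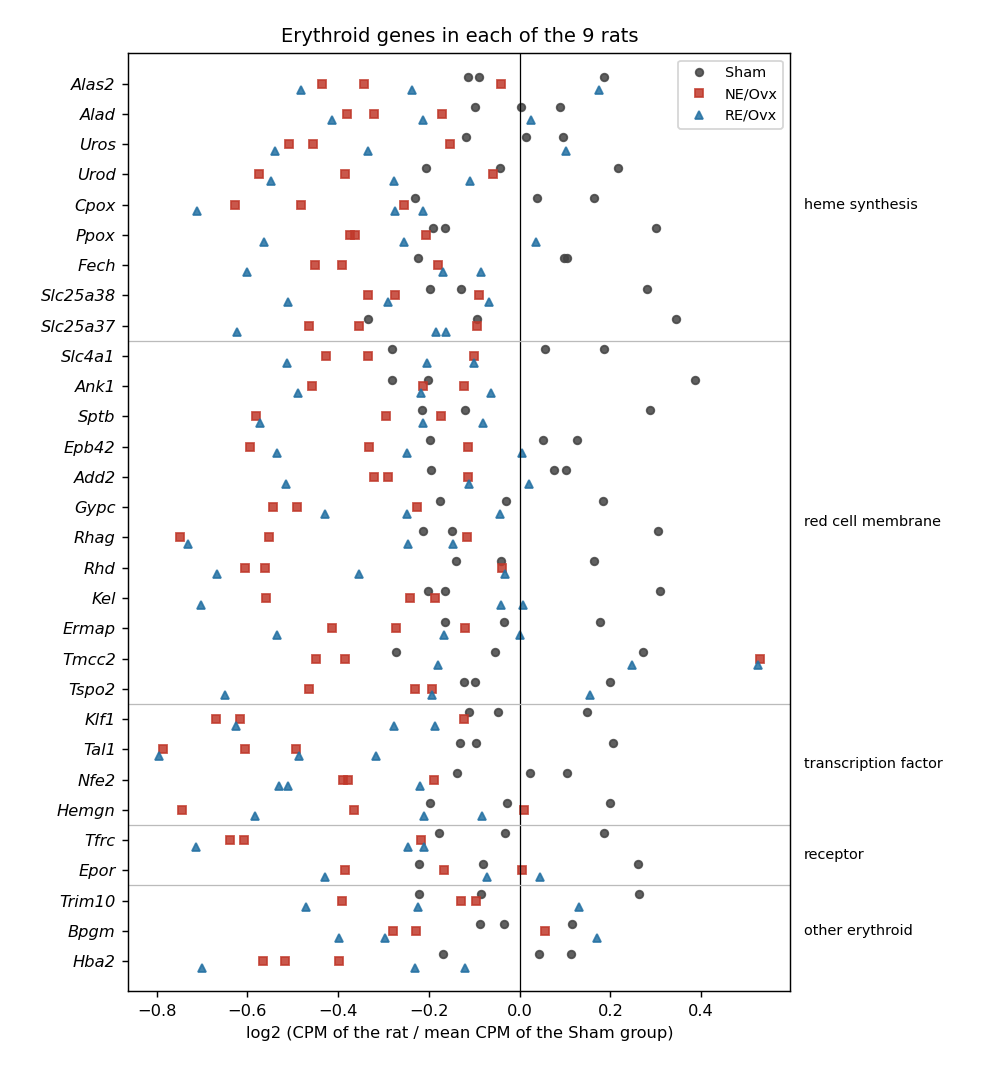
Each member without Gata1 in each of the 9 rats, as the log2 ratio of its CPM (library-scaled counts) to the mean of the Sham group (x axis), with genes on the y axis by role and one symbol per rat. The NE/Ovx and RE/Ovx rats lie mostly to the left of 0, 1 NE/Ovx rat and 1 RE/Ovx rat reach into the Sham range for most genes, and Tmcc2 departs from the rest.

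Values of single rats are given as CPM, counts scaled to a common library size by TMM, which corrects for differences in composition. Alas2 was measured at 680, 837 and 692 CPM in Sham rats 12, 7 and 8, at 580, 544 and 716 CPM in NE/Ovx rats 6, 8 and 9, and at 831, 625 and 527 CPM in RE/Ovx rats 3, 5 and 8. NE/Ovx rat 9 and RE/Ovx rat 3 lay within the Sham range and the other ovariectomized rats below it. The log2 fold change of Alas2 was -0.26 ± 0.18 (SE) in NE/Ovx against Sham (adjusted p = 0.428, edgeR).

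The 9 heme genes had a median log2 fold change of -0.31 in this comparison, from -0.45 to -0.23. None passed the test, 3 were lower with an unadjusted p under 0.05 (Alad, Uros and Cpox; 33.3% against 8.57% of all tested genes), and 4 were lower without overlap between the groups (44.4% against 11.4%). Cpox, which makes protoporphyrinogen in the mitochondrion, had 639, 586 and 487 CPM in Sham rats 12, 7 and 8 and 369, 409 and 478 CPM in NE/Ovx rats 6, 8 and 9. Every NE/Ovx rat was below every Sham rat, but NE/Ovx rat 9 was close to Sham rat 8. Its log2 fold change was -0.45 ± 0.16 (adjusted p = 0.159, edgeR). Alad, the second enzyme of the chain, had 167, 177 and 155 CPM in the Sham rats against 128, 133 and 148 CPM in the NE/Ovx rats, in the same order of rats, a log2 fold change of -0.29 ± 0.12 (adjusted p = 0.199). Uros, which closes the porphyrin ring, had 75.2, 87.3 and 82.5 CPM against 57.4, 59.6 and 73.5 CPM, a log2 fold change of -0.36 ± 0.16 (adjusted p = 0.237). For both genes the NE/Ovx rats again lay entirely below the Sham rats. Ppox, the next enzyme after Cpox, also did not overlap (-0.31 ± 0.17, adjusted p = 0.327), since its highest NE/Ovx value of 69.7 CPM lay just under its lowest Sham value of 70.4 CPM. Urod (-0.32), Fech, which inserts the iron (-0.34), Slc25a38 (-0.23) and Slc25a37 (-0.30) overlapped between the groups.

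The 12 membrane genes had a median log2 fold change of -0.31, and 1 of them (8.33%), Gypc, was lower with an unadjusted p under 0.05, a share near the 8.57% of all tested genes that says nothing particular of the membrane genes. Gypc, which encodes the Gerbich blood group glycophorin, had 267, 230 and 208 CPM in Sham rats 12, 7 and 8 and 167, 161 and 201 CPM in NE/Ovx rats 6, 8 and 9. The groups did not overlap, with NE/Ovx rat 9 nearest to the Sham rats. The log2 fold change was -0.41 ± 0.13 (adjusted p = 0.129, edgeR). Tspo2, an erythroid protein of the translocator family, was the other membrane gene without overlap, at 34.8 to 43.5 CPM in the Sham group and 27.5 to 33.2 CPM in the NE/Ovx group, with a log2 fold change of -0.29 ± 0.19 (adjusted p = 0.410). These 2 genes are 16.7% of the membrane genes, against 11.4% of all tested genes, so their number says little of the membrane genes.

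The band 3 gene Slc4a1 had 4587, 4195 and 3322 CPM in Sham rats 12, 7 and 8, against 3202, 3000.0 and 3765 CPM in NE/Ovx rats 6, 8 and 9. Sham rat 8 lay below NE/Ovx rat 9, so the groups overlapped, and the log2 fold change was -0.28 ± 0.17 (adjusted p = 0.370). Of its partners, the spectrin chain gene Sptb had a log2 fold change of -0.34, Epb42 (protein 4.2) -0.33, Ank1 -0.26 and Add2, an adducin subunit of the skeleton, -0.24. Among the blood group genes, Rhag and Rhd of the Rh complex stood at -0.45 and -0.38, Kel at -0.32 and Ermap, which carries the Scianna group, at -0.26. All of these overlapped between the groups.

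Tmcc2 did not follow the other genes grouped under the membrane. It had 1063, 848 and 729 CPM in Sham rats 12, 7 and 8, 644, 674 and 1271 CPM in NE/Ovx rats 6, 8 and 9, and 1267, 777 and 1044 CPM in RE/Ovx rats 3, 5 and 8. NE/Ovx rat 9 and RE/Ovx rat 3 had the highest values of all 9 rats, with about equal levels. Its log2 fold change was -0.03 ± 0.27 in NE/Ovx against Sham (adjusted p = 0.967) and its sign changed with the scaling, and in RE/Ovx against Sham it was 0.23 ± 0.27, the only positive value among the members there.

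The transcription factor genes had a median log2 fold change of -0.45 over all 5 and of -0.39 over the 4 without Gata1. Tal1, which is also active in megakaryocytes and early progenitors, had 767, 622 and 607 CPM in Sham rats 12, 7 and 8, 386, 437 and 473 CPM in NE/Ovx rats 6, 8 and 9, and 534, 475 and 383 CPM in RE/Ovx rats 3, 5 and 8. All 6 ovariectomized rats lay below all 3 Sham rats. The log2 fold change in NE/Ovx against Sham was -0.62 ± 0.15, or 0.649 times the Sham level, with an adjusted p of 0.0690 in edgeR, the smallest among the members. DESeq2 called Tal1 and Hba2 lower in this comparison. That is 2 of 31 members, where it called 5.41% of all genes with 9 libraries and 4.39% with 2 groups. The number of calls is near that background and says nothing particular of the members.

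Klf1, the activator of adult globin genes, had 167, 191 and 160 CPM in Sham rats 12, 7 and 8, 113, 109 and 159 CPM in NE/Ovx rats 6, 8 and 9, and 152, 142 and 112 CPM in RE/Ovx rats 3, 5 and 8. NE/Ovx rat 9 came within about 1 CPM of Sham rat 8, and the groups did not overlap in either comparison with Sham. The log2 fold change in NE/Ovx against Sham was -0.45 ± 0.16 (adjusted p = 0.165, edgeR). Nfe2, a subunit of the NF-E2 factor of erythroid cells and megakaryocytes, had 268, 284 and 240 CPM in the Sham rats, 201, 203 and 231 CPM in the NE/Ovx rats, and 227, 183 and 185 CPM in the RE/Ovx rats, in the same order of rats. All ovariectomized rats lay below all Sham rats, and the log2 fold change in NE/Ovx against Sham was -0.32 ± 0.11 (adjusted p = 0.156). Hemgn, a nuclear protein of erythroid precursors, had -0.33 ± 0.20 with overlapping groups.

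Gata1, the central erythroid factor, could not be read as an erythroid measurement in these tables. It had 4, 8 and 91 counts in Sham rats 12, 7 and 8, 15, 5 and 6 counts in NE/Ovx rats 6, 8 and 9, and 14, 9 and 4 counts in RE/Ovx rats 3, 5 and 8. Sham rat 8 alone stood apart. In the GRCr8 gene order, the neighbouring Hdac6 and Eras were listed at 0 counts in every library and Timm17b had 0 to 1 counts, while Pqbp1, beyond Timm17b, had 7.54 to 11.9 CPM. On the other side of Gata1, Glod5 had 3.18 to 8.80 CPM and Suv39h1 56.7 to 77.4 CPM, so the genes at or near 0 lay on 1 side only. The fitted log2 fold change of -2.18 ± 1.05 in NE/Ovx against Sham rests on Sham rat 8 and became 0.39 without that rat.

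Tfrc, the transferrin receptor that brings iron into erythroblasts and other dividing cells, had 1877, 1614 and 1457 CPM in Sham rats 12, 7 and 8, 1083, 1060.0 and 1418 CPM in NE/Ovx rats 6, 8 and 9, and 1424, 1390.0 and 1006 CPM in RE/Ovx rats 3, 5 and 8. All ovariectomized rats lay below all Sham rats. The log2 fold change in NE/Ovx against Sham was -0.47 ± 0.17 (adjusted p = 0.166, edgeR). The erythropoietin receptor gene Epor differed less, at 67.0 to 93.6 CPM in the Sham group and 59.9 to 78.4 CPM in the NE/Ovx group, with a log2 fold change of -0.17 ± 0.16 (adjusted p = 0.581).

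Hba2 had 8822, 10720.0 and 10210.0 CPM in Sham rats 12, 7 and 8, 6925, 6696 and 7527 CPM in NE/Ovx rats 6, 8 and 9, and 8453, 9118 and 6108 CPM in RE/Ovx rats 3, 5 and 8. The NE/Ovx rats lay below all Sham rats, while RE/Ovx rat 5 lay above Sham rat 12. The log2 fold change in NE/Ovx against Sham was -0.49 ± 0.17 (adjusted p = 0.151, edgeR). Rat alpha-globin genes are near-identical copies, and the counts of the copy listed as Hba-a1 ran from 14 to 5618 between libraries, so the split of reads among copies is uncertain. Haemoglobin genes were also taken as one sum, of Hba1, Hba2, Hbb, Hbb-b1 and Hbq1b without the Hba-a1 entry. This sum made up 5.45% to 5.72% of all counts in the Sham group, 3.90% to 4.86% in the NE/Ovx group and 3.34% to 5.29% in the RE/Ovx group. Of the remaining members, Bpgm, which makes the 2,3-bisphosphoglycerate that tunes oxygen release, had -0.14 ± 0.16 and Trim10, a protein of late erythroid maturation, -0.20 ± 0.17 in NE/Ovx against Sham.

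**Figure D3:**
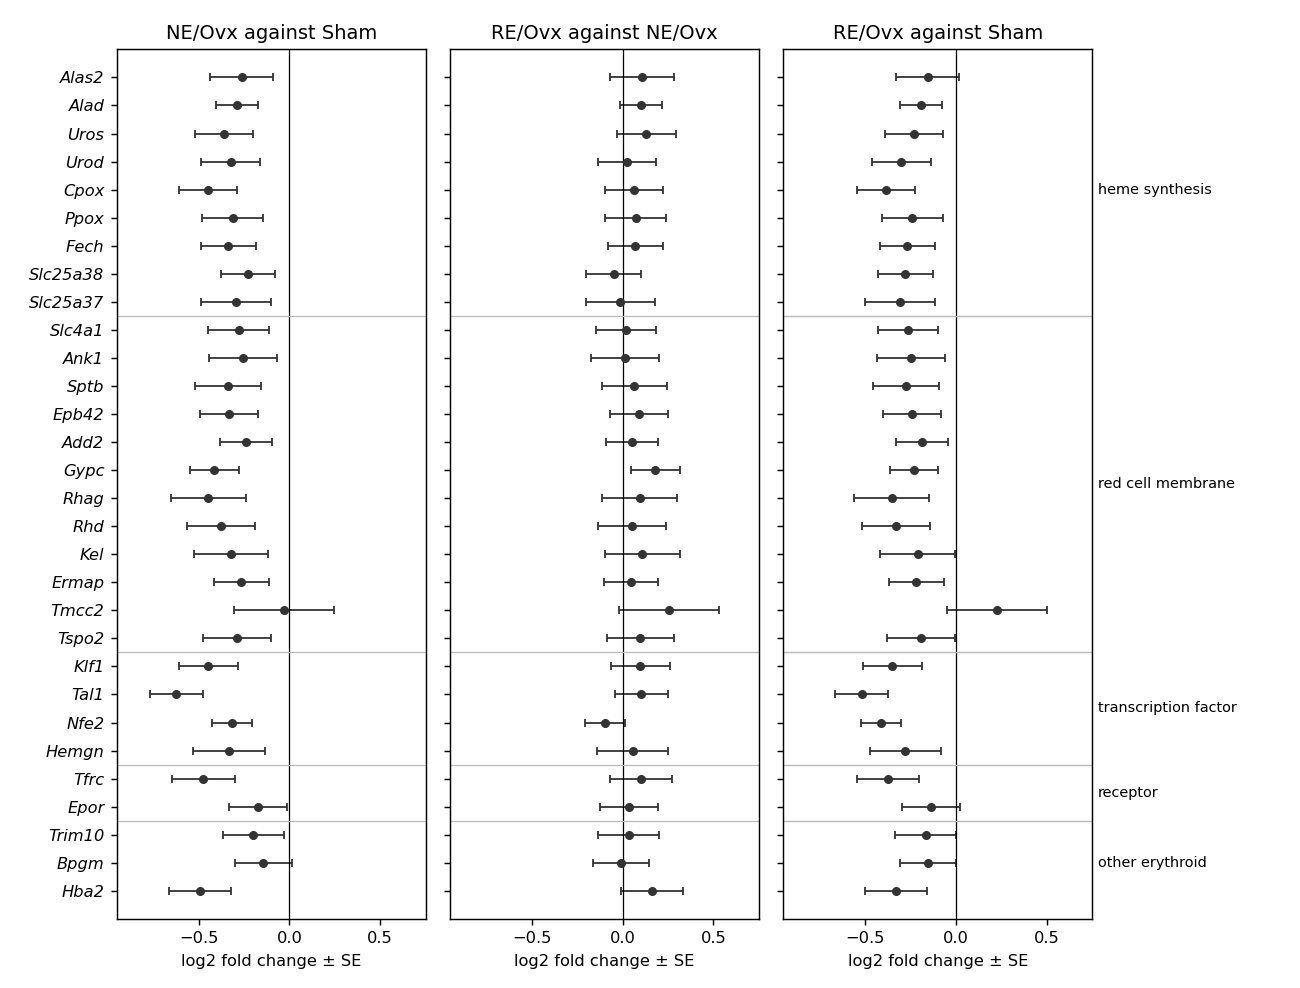
Log2 fold change (points) with its standard error (bars) from edgeR for each member without Gata1 in NE/Ovx against Sham, RE/Ovx against NE/Ovx and RE/Ovx against Sham, with 3 rats per group. In the first panel all points are below 0, in the second they lie around 0 and in the third all but Tmcc2 are below 0.

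The second comparison, RE/Ovx against NE/Ovx, asked whether the genes differed between exercised and non-exercised rats after ovariectomy. Positive log2 fold changes were found for 27 of 31 members (87.1%), against 51.8% of all tested genes, but they were small, with a median of 0.068 against 0.0079 over all tested genes. No member was called by edgeR, and neither was any other gene (0% called), and no member had an unadjusted p under 0.05, against 5.28% of all tested genes. No member had groups without overlap, against 11.6% of all tested genes. The smallest adjusted p was 0.968 for Gypc, at 167, 161 and 201 CPM in NE/Ovx rats 6, 8 and 9 and 228, 198 and 175 CPM in RE/Ovx rats 3, 5 and 8. These values overlapped, with a log2 fold change of 0.18 ± 0.13. By role the medians were 0.068 for heme synthesis, 0.078 for the membrane and 0.073 for the transcription factors. The sign depended on RE/Ovx rat 3, since without it the median over the members was -0.068 and 25 of 31 members were negative.

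The third comparison, RE/Ovx against Sham, asked how far the exercised ovariectomized rats stood from the Sham rats. It shares its Sham rats with the first comparison and its RE/Ovx rats with the second, so the 3 comparisons are not independent. Negative values were found for 30 of 31 members (96.8%), against 51.1% of all tested genes, with a median of -0.26 against -0.0078 over all tested genes. No member was called, while 1171 genes (8.06%) were called in all. With an unadjusted p under 0.05, Cpox, Tal1 and Nfe2 were lower (9.68% of members), against 11.1% of all tested genes. Groups without overlap were found for Klf1, Tal1, Nfe2 and Tfrc (12.9% of members), against 13% of all tested genes. These last shares are near the background and say nothing particular of the members. Without RE/Ovx rat 3, 19 of 31 members were lower without overlap, against 20% of all tested genes, and without Sham rat 8, 13 of 31 against 18%. Most members placed these rats nearest to the other group. Without Sham rat 12, Sham rat 7, RE/Ovx rat 5 or RE/Ovx rat 8, the counts were 5, 4, 6 and 4 of 31. The shares of all tested genes were then 19.8%, 19.8%, 15.6% and 16%.

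By role, the median in RE/Ovx against Sham was -0.27 for heme synthesis, -0.24 for the membrane and -0.38 for the 4 transcription factors without Gata1. Nfe2 was closest to the threshold, at -0.41 ± 0.11 (adjusted p = 0.0501, edgeR), followed by Tal1 at -0.52 ± 0.15 (adjusted p = 0.0566). DESeq2 called both lower, and so did edgeR without RE/Ovx rat 3. These calls are 2 of 31 members, no larger a share than that of all genes in the same fits. DESeq2 called 10.5% of all genes with 9 libraries and 7.64% with 2 groups, and edgeR without RE/Ovx rat 3 called 11.9%. The number of calls is therefore no result about the members. Cpox had -0.38 ± 0.16 (adjusted p = 0.162), Klf1 -0.35 ± 0.16 (adjusted p = 0.208) and Tfrc -0.37 ± 0.17 (adjusted p = 0.208). The membrane genes Rhag (-0.35) and Rhd (-0.33) had the most negative values of their group, with overlapping rats.

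The spread within groups was wide enough that, with all rats, most members overlapped between the groups in each comparison. The SD of a member was typically 13.1% of its mean in the Sham group, 13.02% in the NE/Ovx group and 18.2% in the RE/Ovx group, as medians over 30 members without Gata1. NE/Ovx rat 9 was the highest of its group for 28 of 31 members and RE/Ovx rat 3 for 29, while RE/Ovx rat 8 was the lowest of its group for 28 and the lowest of all 9 rats for 21. Sham rat 8 was the lowest of its group for 25 members. Each rat can be given 1 level, the median over members of log2 CPM centred on the mean of the 9 rats. This level was 0.32, 0.25 and 0.03 in Sham rats 12, 7 and 8, -0.25, -0.19 and 0.06 in NE/Ovx rats 6, 8 and 9, and 0.16, -0.03 and -0.36 in RE/Ovx rats 3, 5 and 8. The groups overlapped on this scale, with NE/Ovx rat 9 and RE/Ovx rat 3 above Sham rat 8. Without NE/Ovx rat 9 the median of NE/Ovx against Sham was -0.43 and 27 members had groups without overlap (19% of all tested genes were lower without overlap then), and without Sham rat 8 the values were -0.40 and 21 members (16.2%). Without Sham rat 12, Sham rat 7, NE/Ovx rat 6 or NE/Ovx rat 8, the counts were 12, 12, 11 and 12 members. The shares of all tested genes were then 20.5%, 18.2%, 14.7% and 14.9%.

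The 3 main roles ordered the rats much alike. For the heme genes the level ran from 0.32 in Sham rat 12 to -0.33 in RE/Ovx rat 8, and for the membrane genes from 0.36 to -0.36 in the same rats. For the 4 transcription factors without Gata1 it was 0.25, 0.39 and 0.14 in Sham rats 12, 7 and 8, all above the NE/Ovx levels of -0.24, -0.30 and 0.11 and the RE/Ovx levels of 0.08, -0.05 and -0.35 (rats 3, 5 and 8). Whether the roles differ from each other in their response was not tested.

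**Figure D4:**
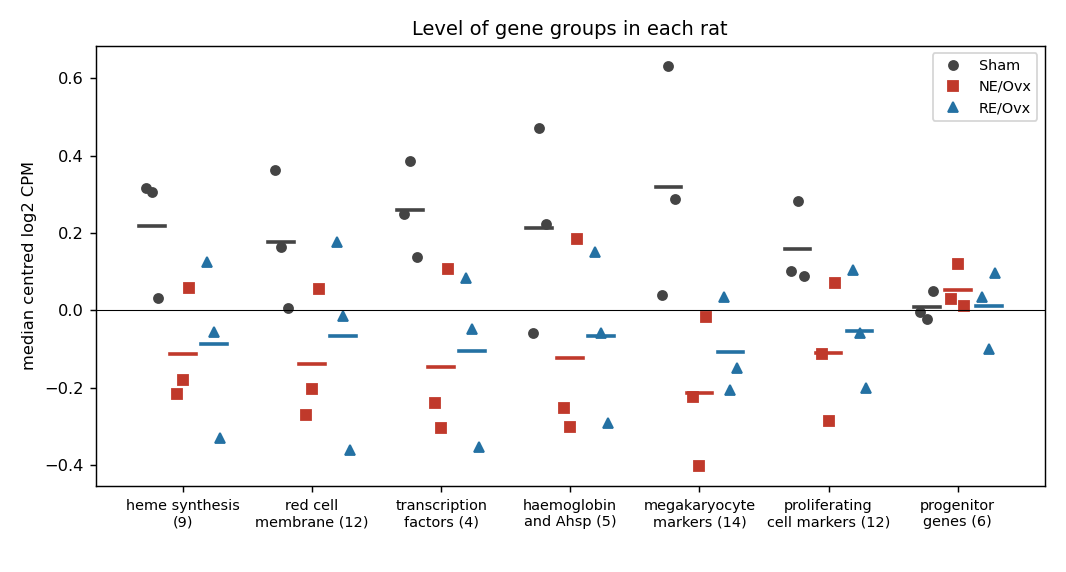
Level of 7 gene groups in each rat, as the median over genes of log2 CPM centred on the mean of the 9 rats (y axis), with the number of genes in parentheses, one symbol per rat and a line at the group mean. The heme, membrane and transcription factor members, the haemoglobin genes, and the megakaryocyte and proliferating cell markers have higher means in the Sham group, and the progenitor genes lie near 0 in all groups.

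The members also differed in which Sham rat was highest, a feature looked for after the values were seen. Of the 31 members, 18 were highest in Sham rat 12 among the Sham rats, with a median transcript length of 4608 bases (2268 to 10389), and 12 were highest in Sham rat 7, with a median of 2000 bases (545 to 4034). These lengths are those implied by the ratio of counts to FPKM. Ank1, for example, had 1404 CPM in Sham rat 12 and 933 CPM in Sham rat 7, while Rhag had 229 and 314 CPM. Over 30 members the correlation of log2 length with the log2 ratio of rat 12 to rat 7 was r = 0.57 (Spearman's rho 0.59), and over 14495 tested genes it was r = 0.24 (rho 0.28). This is a description across genes of 2 libraries, and genes are not independent replicates.

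**Figure D5:**
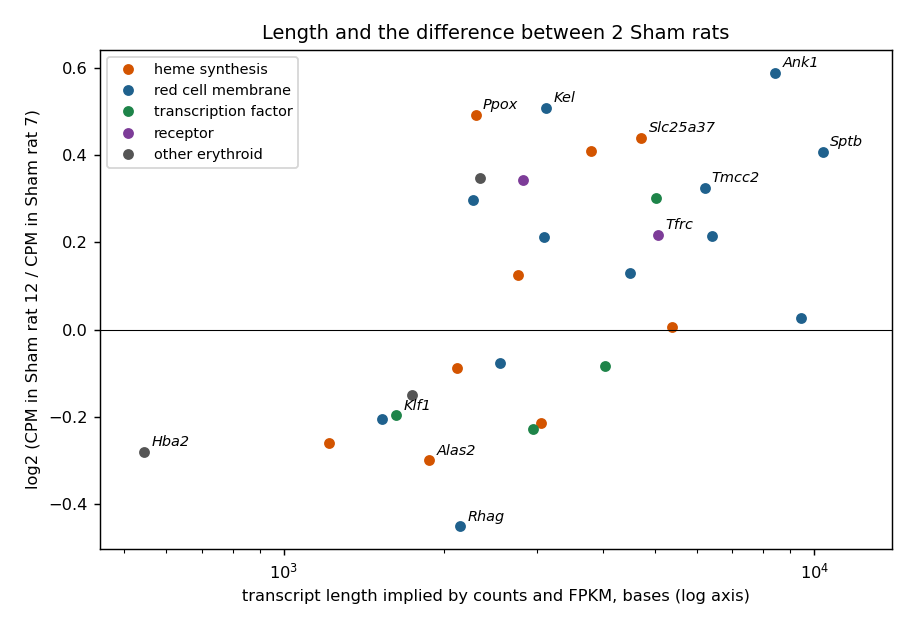
Transcript length implied by counts and FPKM (x axis, bases, log scale) against the log2 ratio of CPM in Sham rat 12 to CPM in Sham rat 7 (y axis) for 30 members without Gata1, coloured by role. Long transcripts such as Ank1 and Sptb lie above 0, and short ones such as Hba2, Alas2 and Klf1 lie below it.

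Further genes with a part in erythroid cells, some of them also used by other cells, were counted in lists by function. Of 77 such genes in 5 lists, 65 (84.4%) were negative in NE/Ovx against Sham, against 49.6% of all tested genes. Their median was -0.18, and none was called. The 5 haemoglobin and chaperone genes had a median of -0.44 there, and Ahsp, the chaperone of free alpha-globin, had the smallest p of that list at -0.63 ± 0.24 (adjusted p = 0.173, edgeR), next to Hbb-b1 at -0.44 ± 0.17 (adjusted p = 0.190). The 19 genes of heme and iron handling were all negative with a median of -0.21, led by Glrx5, an iron-sulphur cluster protein (-0.53 ± 0.16, adjusted p = 0.110), and Alas1, the form of the first heme enzyme used outside the erythroid lineage (-0.34 ± 0.13, adjusted p = 0.179). Of 18 further membrane and skeleton genes 15 were negative (median -0.20), with Xk, the partner of Kell, at -0.53 ± 0.14 (adjusted p = 0.0914) and the urea transporter Slc14a1 at -0.44 ± 0.15 (adjusted p = 0.150).

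Of 19 further regulators and signalling genes 13 were negative (median -0.12). Jak2, the kinase of the erythropoietin receptor, had 191, 192 and 205 CPM in Sham rats 12, 7 and 8 and 152, 151 and 157 CPM in NE/Ovx rats 6, 8 and 9. The groups did not overlap, with a log2 fold change of -0.36 ± 0.08 (adjusted p = 0.0579, edgeR). Tcf3, an E-protein that pairs with Tal1 and is also needed by B cells, had a positive value of 0.54 ± 0.13 (adjusted p = 0.0756). Of 16 red cell enzyme and clearance genes 13 were negative (median -0.18), with Pklr, red cell pyruvate kinase, at -0.45 ± 0.14 (adjusted p = 0.123) and Hk1 at -0.32 ± 0.11 (adjusted p = 0.138). The 6 progenitor genes had a median of 0.013 with 3 of either sign, and Cd34 had 0.48 ± 0.26 (adjusted p = 0.332).

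In RE/Ovx against NE/Ovx none of the 77 genes was called, 48 (62.3%) were positive, against 51.8% of all tested genes, and the median was 0.038. In RE/Ovx against Sham 65 of the 77 (84.4%) were negative, against 51.1% of all tested genes, with a median of -0.18. Only 4 of the 77 were called there, no larger a share than the 8.06% of all tested genes, so the calls are no result about erythroid genes. Of these, 2 fell, Alas1 by 0.56 on the log2 scale (adjusted p = 0.0316, edgeR) and Jak2, named here for its call, by 0.32 (adjusted p = 0.0368), and 2 rose, Bcl11a, a repressor of fetal globin that B cells also need, by 0.41 (adjusted p = 0.0306) and Tcf3 by 0.56 (adjusted p = 0.0340). Glrx5 had -0.57 ± 0.16 (adjusted p = 0.0533).

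Markers of other marrow cells moved in the same libraries, and their part in the values above was not tested. The 14 tested megakaryocyte markers, a lineage that shares Tal1, Nfe2 and Gata1 with erythroid cells, summed to 1640.0 to 2268 CPM in the Sham group, 1329 to 1561 CPM in the NE/Ovx group and 1369 to 1619 CPM in the RE/Ovx group, with Gp1bb listed at 0 and Vwf the most abundant. All 14 were negative in NE/Ovx against Sham (median -0.51), none was called there, and 4 were called lower in RE/Ovx against Sham. The 12 proliferating cell markers, with Mki67 the most abundant, summed to 4071 to 4658 CPM in the Sham group, 3076 to 4022 CPM in the NE/Ovx group and 3261 to 4092 CPM in the RE/Ovx group, and all 12 were negative in both comparisons with Sham. Neutrophil markers, with S100a9 the most abundant, summed to 8315 to 13780.0 CPM in the Sham group, 6417 to 7289 CPM in the NE/Ovx group and 4755 to 7123 CPM in the RE/Ovx group. None of the 14 tested neutrophil genes was called in NE/Ovx against Sham and 7 were called lower in RE/Ovx against Sham. Of all 14520 tested genes, 445 were called lower in RE/Ovx against Sham.

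The summed B cell, adipocyte, and osteoblast and bone markers moved the opposite way. B cell markers, with Ebf1 the most abundant, summed to 304 to 725 CPM in the Sham group, 827 to 1320.0 CPM in the NE/Ovx group and 995 to 1199 CPM in the RE/Ovx group. Adipocyte markers, led by Lpl, summed to 301 to 431, 593 to 742 and 705 to 947 CPM in the same order of groups, and osteoblast and bone markers, led by Col1a1, to 7701 to 10840.0, 18220.0 to 29750.0 and 20160.0 to 32500.0 CPM. Col1a1 averaged 15110 CPM over the 9 rats and made up most of that last sum. In NE/Ovx against Sham, 10 of 12 osteoblast and bone genes were positive and 2 negative (median 0.52). Of the 12 adipocyte genes, 11 were positive and 1 was negative. There, 5 adipocyte, 3 osteoblast and bone and 0 B cell genes were called higher, of 12 in each list. Of all 14520 tested genes, 149 were called higher there. In RE/Ovx against Sham, 11, 3 and 3 were called higher in the same order of lists, against 726 of 14520 tested genes. None of these 3 lists had a gene called lower in either comparison. CPM values are shares of a library, so these sums are not independent of each other or of the members. Skeletal muscle markers, led by Ttn, summed to 5259 to 15890.0 CPM in the Sham group, 13890.0 to 17630.0 CPM in the NE/Ovx group and 6600.0 to 9926 CPM in the RE/Ovx group, with Sham rat 8 the lowest of all 9 rats. Macrophage markers, led by Csf1r and with Marco under 10 counts in every library, summed to 532 to 926, 661 to 749 and 636 to 736 CPM in the same order and overlapped between all groups.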

How the data were processed

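The members and gene lists were chosen with earlier results of these data known. Per the labels and methods, total RNA of each tibia was made into a stranded, ribosomal RNA-depleted library and sequenced, and the submitters' processing notes name Trimmomatic, Bowtie2, HISAT2, StringTie and the genome build Rnor_6.0, with no versions. The authors deposited 1 table per rat of gene counts and 1 of FPKM, and no source used here names the counting tool. Whether strand was used in counting is not stated, so reads of overlapping antisense genes cannot be told apart.

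The deposited counts of all 9 libraries were fitted by group in edgeR 4.0.16 (TMM scaling, factors 0.962 to 1.04; filterByExpr; quasi-likelihood test, two-sided, Benjamini-Hochberg adjustment over 14520 genes, threshold 0.05), with R 4.3.3. Each group had 3 rats, so that an exact permutation test of a single value could not go below 0.1 and none is given. Level plots used a prior count of 2, and deposited FPKM served for levels between genes, for implied transcript lengths (with counts) and for the limma alternatives. Alternatives were DESeq2 1.42.0, limma 3.58.1 on log2 FPKM (pseudocount 1 or 0.1, or an FPKM of at least 1 in 3 libraries), other scalings and filters, and leaving out each rat. The labels give no batch or date. The fits were tested on simulated data. Every member is named; from each further list, up to 2 genes with the smallest p in a described comparison were eligible, and of marker lists the sum and the most abundant gene. Promoter sequences are from RefSeq (GRCr8), with 30 members matched by symbol and Hba2 as a synonym of Hba-a2, and protein sequences were not analysed here.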

Additional observations from a re-analysis of the deposited data

How the results depend on the processing

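The median over all members kept its negative sign against Sham under every scaling, filter, tool and left-out rat tried, from -0.43 to -0.27 in NE/Ovx and from -0.39 to -0.14 in RE/Ovx. DESeq2, with all 9 libraries or with 2 groups, called 2 members in NE/Ovx against Sham (Tal1 and Hba2) and 2 in RE/Ovx against Sham (Nfe2 and Tal1), where edgeR called none. It also called 997 and 795 of all genes (5.41% and 4.39%) in NE/Ovx against Sham, against 178 by edgeR. In RE/Ovx against NE/Ovx it called 5 and 140 against 0, and in RE/Ovx against Sham 1931 and 1383 (10.5% and 7.64%) against 1171. Limma on FPKM called 25 to 140 and 465 to 877 genes in the comparisons with Sham and no member. Scaling to library totals changed the split in RE/Ovx against Sham from 726 higher and 445 lower to 891 and 289, and turned Tmcc2 in NE/Ovx against Sham to 0.0069. With each rat left out in turn, members without overlap numbered 11 to 27 in NE/Ovx against Sham, 0 to 6 in RE/Ovx against NE/Ovx and 4 to 19 in RE/Ovx against Sham, and members called in the last numbered 0 to 2. The highest of these counts came without NE/Ovx rat 9 (19% of all tested genes lower without overlap), RE/Ovx rat 8 (8.34% higher) and RE/Ovx rat 3 (20% lower, and 11.9% called). The transcription factor median in NE/Ovx against Sham then ran from -0.66 to -0.35, and the median of all members in RE/Ovx against NE/Ovx from -0.068 to 0.20. Signs of single genes changed when a rat was left out for Tmcc2 (-0.43 to 0.14) and Gata1 (-2.91 to 0.39) in NE/Ovx against Sham, and for Epor (-0.24 to 0.0072) and Gata1 (-2.63 to 0.48) in RE/Ovx against Sham. In RE/Ovx against NE/Ovx, where 4 of 31 members were negative with all rats, 25 were negative without RE/Ovx rat 3, 13 without NE/Ovx rat 6 and 12 without NE/Ovx rat 8, so most signs there were not stable. Ranges of single genes were computed there for the 5 members with the smallest p, among which Alad changed sign (-0.022 to 0.19). The causes were not tested. Gata1 was filtered out, and gave no value, when at least 10 counts were required in each library, in the edgeR fits of 2 groups with Sham and when an FPKM of at least 1 was required in 3 libraries. No paired analysis was possible because the groups share fewer than 2 rat numbers and the numbers name different animals.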
